A study of Mus musculus with 16 samples.

Results

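Left ventricular gene expression 10 weeks after transverse aortic constriction (TAC) was compared with that of intact mice, over 2 genotypes in 1 fit. All 16 arrays of the series entered, and the labels alone chose them: 8 carry the TAC label and 8 the intact label. Genotype was an additive term, so each difference is the response averaged over the genotypes. The 4 groups of 4 mice were transgenic mice after TAC (NOS3-TG TAC), wild-type littermates after TAC (WT TAC), intact transgenic mice (NOS3-TG intact) and intact wild-type littermates (WT intact), each with 2 males and 2 females. The transgene is the endothelial nitric oxide synthase gene Nos3 under the alpha-MHC promoter, which is active in cardiomyocytes, and both genotypes are on a C57BL/6 N background. The labels call the mice matched for age and weight and give no age. RNA came from a ring cut from the middle of the left ventricle, and each array held 1 mouse. The controls were intact and not sham-operated, so banding of the aorta cannot be told apart from the operation.

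TAC narrows the aortic arch, so the left ventricle ejects against a raised pressure. Adult cardiomyocytes respond by growing in size, and a ventricle under load is known to bring back genes of the fetal heart, such as natriuretic peptides and skeletal alpha-actin. Cardiac fibroblasts lay down collagen, and the adult heart's fuel use, which rests mostly on fatty acids, moves away from them as the ventricle hypertrophies and fails.

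Values below are relative signals, that is, a probe's processed signal divided by the 75th percentile of processed signals on its array. That percentile was 1053 to 1491 units over the 16 arrays, and the median share of probes well above background was 52.5%. NOS3-TG TAC replicate 3 (46.2%), NOS3-TG TAC replicate 4 (68.1%) and NOS3-TG intact replicate 2 (44.8%) stood apart in that share. The TAC arrays lay on slides 2 and 3 and the intact arrays on slides 1 and 4, so TAC and slide cannot be told apart, and slide 3 was scanned on another day than the other 3 slides.

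The labelled tissue was checked against markers of the atrium, and the arrays went against it in part. Myl7, the atrial regulatory light chain, had relative signals of 0.104 to 42.4 with a median of 2.93 after TAC, against 0.0481 to 130 with a median of 52 in intact hearts. It lay above the array's 75th percentile on 10 arrays, which were the 4 TAC males and 6 of the 8 intact mice. It lay below on the other 6 arrays, which were the 4 TAC females, NOS3-TG intact replicate 3 and WT intact replicate 4. Myl4, the atrial essential light chain, and Sln, the sarcolipin that restrains the atrial calcium pump, were high and low on the same arrays, and none of the 3 genes passed the test of TAC against intact. Adipocyte genes varied too: Cidec, a fat droplet protein, had relative signals of 0.0813 to 0.551 after TAC and of 0.0715 to 2.3 in intact hearts. Counts of called genes, over all genes and within lists, were therefore also made with a term for the mean log2 signal of Myl7, Myl4 and Sln, with a term for the adipocyte genes Adipoq, Cidec and Plin1, and in the 10 arrays and the 6 arrays apart, all chosen after the data were seen.

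**Figure D1:**
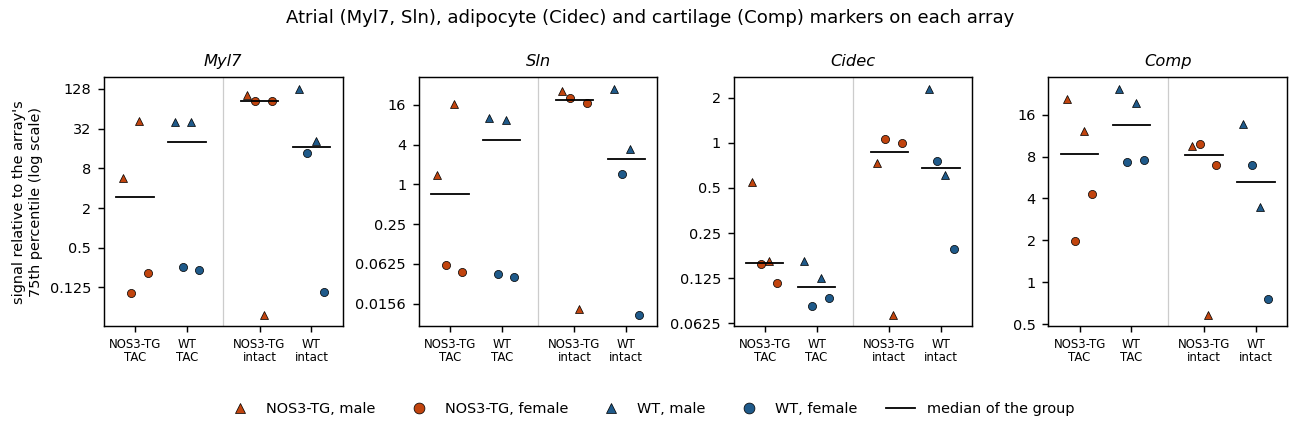
Relative signals of the atrial genes Myl7 and Sln, the fat cell gene Cidec and the cartilage gene Comp on each of the 16 arrays, on log axes. Points are single mice (triangles males, circles females), bars are medians of the 4 groups, and Myl7 spans 0.0481 to 130 among arrays that all carry the left ventricle label.

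Of 15670 genes tested, 5486 (35%) differed between TAC and intact hearts at an adjusted p under 0.05. Of these, 2397 (15.3%) were higher and 3089 (19.7%) lower after TAC, and the median log2 difference over all tested genes was -0.029. The change exceeded 2-fold for 349 higher genes (2.23%) and 339 lower genes (2.16%). In 538 genes (3.43%) all 8 TAC arrays lay above all 8 intact arrays, and in 501 (3.2%) all 8 lay below. With the atrial term 5167 of the 5486 calls were kept, with the adipocyte term 3611, and in the 10 arrays with high Myl7 3892, none of them with the opposite sign. In the 6 arrays with low Myl7, of which 2 are intact, 69 were kept, and 46 of the 5486 genes had the opposite sign there. Blocking on the scan day left 1213 higher and 1506 lower genes.

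The 2 genotypes share no array, and each gives its own value of the response. Of the 5486 called genes 5485 had the same sign in NOS3-TG and in WT mice, against 77.1% of all tested genes, and the called genes were chosen on the mean of both. Tested alone, NOS3-TG mice gave 846 higher (5.4%) and 666 lower (4.25%) genes, and WT mice 1536 higher (9.8%) and 2504 lower (16%). The lists shared 1166 genes, which is 77.1% of the NOS3-TG list and 28.9% of the WT list. The median size of the log2 response of the 5486 genes was 0.368 in NOS3-TG and 0.484 in WT mice. No gene passed the test of the difference between these responses in limma (0%), in which 994 had an unadjusted p under 0.05 and the smallest adjusted p was 0.776. Between the sexes likewise no gene passed (0%), with 1644 at an unadjusted p under 0.05 and a smallest adjusted p of 0.0736. Without WT TAC replicate 4 there were 213, and without any other single array 0 or 1. After TAC all males had Myl7 above the array's 75th percentile and all females below, while intact mice of both sexes lay on both sides. A difference of response between the sexes therefore cannot be told apart from the atrial marker level.

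**Figure D2:**
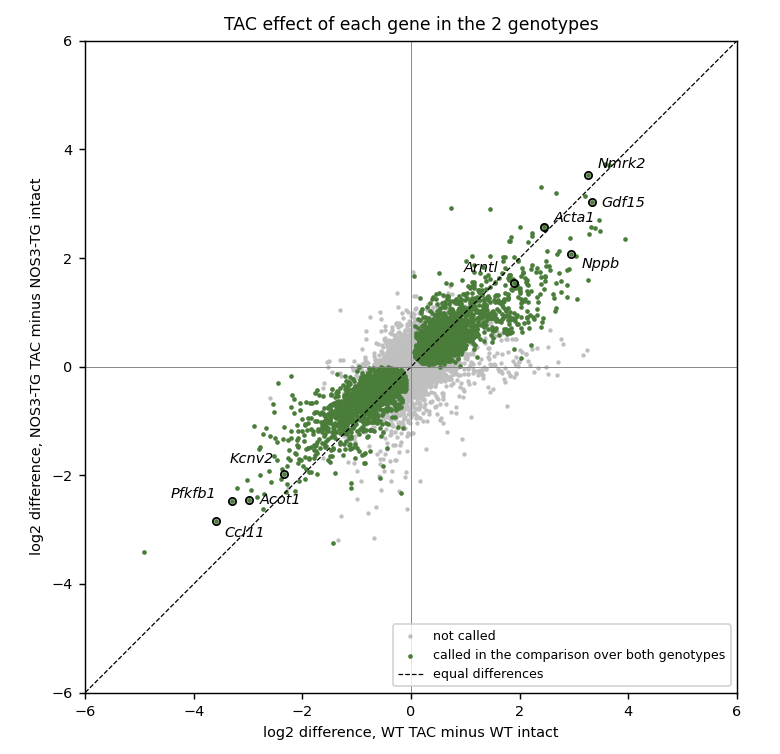
Each point is 1 tested gene, with its log2 difference between TAC and intact NOS3-TG mice on the vertical axis and that between TAC and intact WT mice on the horizontal axis. Genes called over both genotypes are green and others grey, and 5485 of the 5486 green points lie where the signs are the same.

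Genes of the fetal heart and genes of stretched muscle rose nearly as a group. Of 24 listed genes 23 were measured, and 19 were higher and 1 lower after TAC, with a median log2 difference of 0.75. Nppb, which encodes brain natriuretic peptide, had relative signals of 117 to 232 with a median of 198 in TAC hearts, against 14.8 to 68.8 with a median of 32.6 in intact hearts (log2 difference 2.51 ± 0.22 SE, adjusted p = 3.04e-06). Acta1, the skeletal alpha-actin of the fetal heart, had 99.4 to 214 with a median of 149 after TAC, against 13.2 to 41.9 with a median of 28.4 in intact hearts (log2 difference 2.51 ± 0.23, adjusted p = 4.17e-06). For both genes every TAC array lay above every intact array, in males and females and in both genotypes. The log2 differences of Nppb were 2.08 in NOS3-TG and 2.94 in WT mice, and those of Acta1 2.56 and 2.45.

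Promoters of 3 genes are shown because the genes stand for groups that rose, and because the letters searched for are known from the control of such genes. They are 300-base windows around the transcription start, mostly upstream, from RefSeq with build GRCm38.p6, and capitals mark motif matches. In Nppb (chr4:147985650-147985949, plus strand) they mark an MCAT motif, CATTCC, read on the reverse strand, and a GATA motif, AGATAA. In Acta1 (chr8:123894726-123895025, minus strand) they mark an MCAT motif, and in the mitotic kinase gene Cdk1 (chr10:69352863-69353162, minus strand) 2 CHR motifs, TTTGAA, which are known from promoters of cell cycle genes.
Nppb: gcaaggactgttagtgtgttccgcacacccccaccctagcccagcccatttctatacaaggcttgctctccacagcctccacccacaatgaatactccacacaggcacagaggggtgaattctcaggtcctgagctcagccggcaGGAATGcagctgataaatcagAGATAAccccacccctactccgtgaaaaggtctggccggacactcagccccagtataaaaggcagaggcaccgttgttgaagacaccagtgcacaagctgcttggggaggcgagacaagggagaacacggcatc
Acta1: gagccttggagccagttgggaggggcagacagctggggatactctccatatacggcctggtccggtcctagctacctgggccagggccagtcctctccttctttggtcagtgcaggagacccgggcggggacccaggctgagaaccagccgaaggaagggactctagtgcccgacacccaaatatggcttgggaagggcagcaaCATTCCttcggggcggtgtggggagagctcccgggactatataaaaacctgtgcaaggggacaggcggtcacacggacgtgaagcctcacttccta
Cdk1: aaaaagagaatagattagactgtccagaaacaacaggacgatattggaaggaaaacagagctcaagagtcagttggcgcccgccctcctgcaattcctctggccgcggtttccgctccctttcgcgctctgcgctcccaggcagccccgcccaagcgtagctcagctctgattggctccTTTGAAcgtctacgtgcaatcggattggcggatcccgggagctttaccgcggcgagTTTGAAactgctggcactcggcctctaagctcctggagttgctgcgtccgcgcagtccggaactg

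With either strand searched, MCAT stood in 13.2% of the windows of higher genes, 12.9% of those of lower genes and 12.5% of the 13717 windows of all tested genes. The corresponding shares for CHR were 13.7%, 11.3% and 12.2%, and for GATA 6.09%, 7.39% and 6.88%. For these motifs the shares over the whole response lay close to those of all windows. Other motifs were searched too. The NRF1 motif, CGCATGCG, stood in 2.34% of windows of higher genes, 4.15% of those of lower genes and 3.45% of all. In the same order AP-1 stood in 6.14%, 5.17% and 5.44%, and the amino acid response motif in 2.53%, 2.32% and 2.27%. The heat shock motif stood in 5.55%, 5.49% and 5.81%, and the estrogen-related receptor motif in 0.195%, 0.282% and 0.241%. No difference between shares was tested. Within lists, MCAT stood in 11 of the 30 windows of fetal and stretch genes (36.7%) and CHR in 18 of the 34 windows of cell cycle genes (52.9%). A match is a run of letters in the reference window and not a measured site.

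Among the other fetal and stretch genes, Nppa, the gene of atrial natriuretic peptide, had relative signals of 219 to 392 with a median of 344 after TAC, against 43 to 181 with a median of 82.9 in intact hearts (log2 difference 1.91 ± 0.263, adjusted p = 0.000116). It is also an atrial marker, and its highest intact signals (181, 148, 143 and 96.4) lay on the intact arrays with the highest Myl7 (130, 85.1, 83.4 and 105). On the TAC arrays with low Myl7 it had 219 to 378. Rcan1, a calcineurin inhibitor that calcineurin itself induces, had 10.7 to 46.6 with a median of 23.3 in TAC hearts and 5.44 to 6.89 with a median of 5.93 in intact hearts (log2 difference 1.86 ± 0.224, adjusted p = 3.91e-05). Neither gene's groups overlapped, and the TAC arrays were spread more widely for Rcan1. Xirp2, an actin-binding protein of the intercalated disc, showed a smaller and very even difference, with 114 to 155 after TAC and 60.6 to 70.6 in intact hearts (log2 difference 1.01 ± 0.0665, adjusted p = 4.45e-07). Synpo2l, a Z-disc protein, rose by 1.14 ± 0.0864 on the log2 scale (adjusted p = 8.11e-07). Myh7, the slow beta-myosin heavy chain, had 276 to 393 with a median of 304 after TAC, against 111 to 251 with a median of 194 in intact hearts (log2 difference 0.75 ± 0.149, adjusted p = 0.00152). Its adult partner Myh6, the fast alpha-myosin heavy chain, fell by 0.28 on the log2 scale (SE 0.0819, adjusted p = 0.0152), though its other probe went the other way and the call was not made with the adipocyte term. The 1 member that fell was Tnnt1, the slow skeletal troponin T, with a log2 difference of -0.51 ± 0.174 (adjusted p = 0.0338), a call lost without any of 8 single arrays (adjusted p of up to 0.0687, without WT TAC replicate 3).

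**Figure D3:**
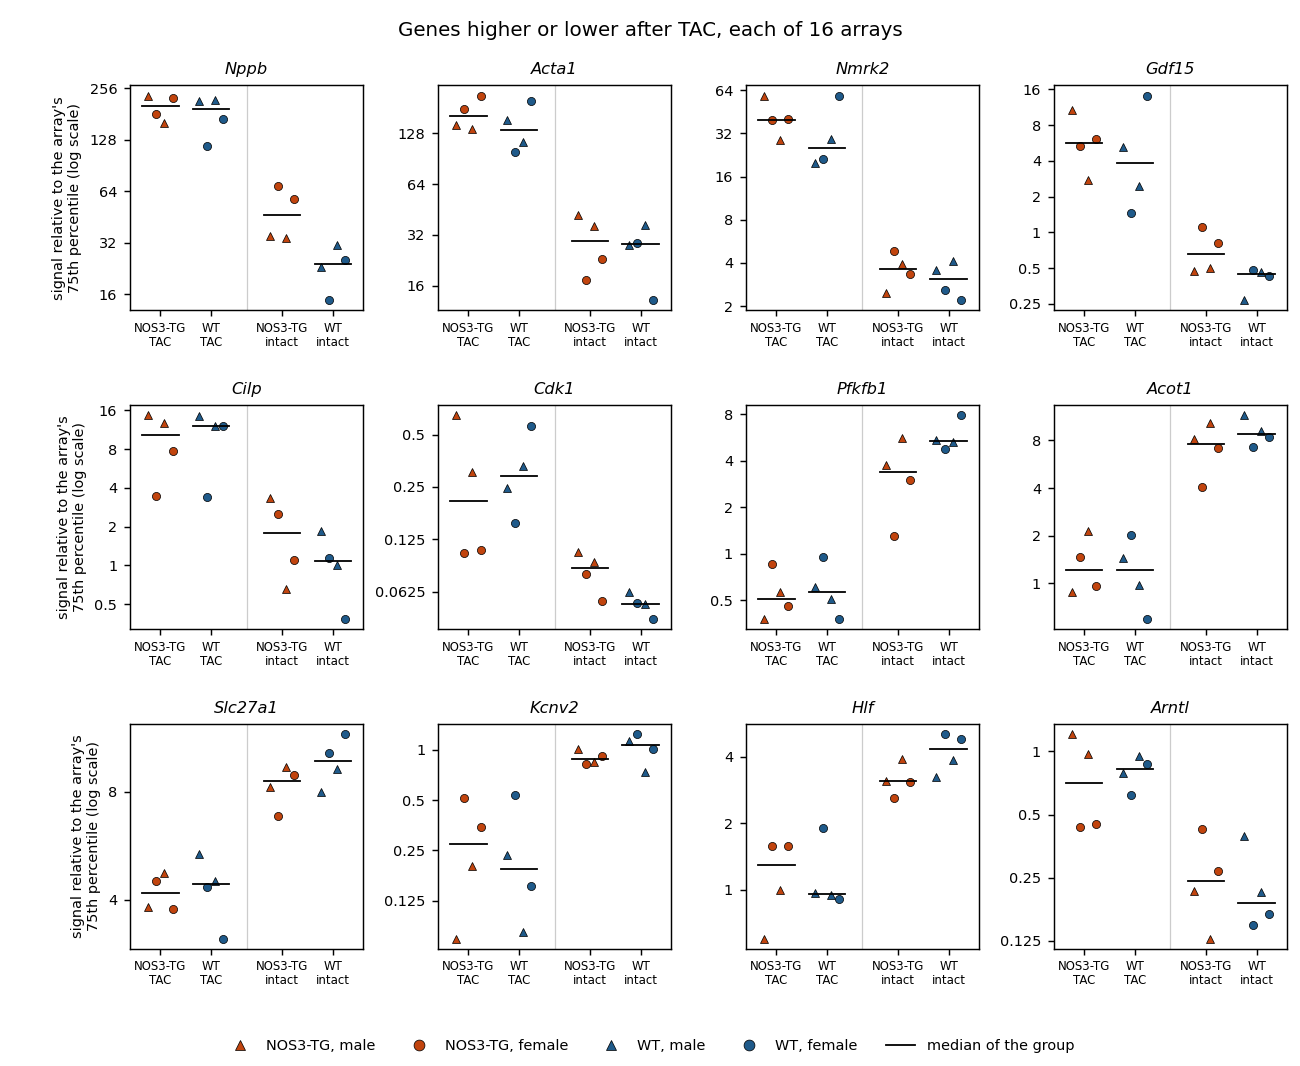
Relative signals of 12 genes on each of the 16 arrays, on log axes, with the TAC groups left of the intact groups. Points are single mice (triangles males, circles females, colours genotypes) and bars are group medians; Nppb, Acta1, Nmrk2 and Gdf15 are higher on every TAC array than on any intact array, and Pfkfb1, Acot1 and Hlf lower.

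Most measured collagen genes rose. Of 20, 16 were higher and none lower, with a median log2 difference of 0.69; within NOS3-TG mice 5 were higher at the threshold and within WT mice 13, with medians of 0.51 and 0.80. Of 18 measured matricellular genes, whose products signal from the matrix, 9 were higher and 1 lower, with 2 higher within NOS3-TG and 9 within WT mice. Over all tested genes 5.4% were higher within NOS3-TG and 9.8% within WT mice. The matricellular median was 0.34 in females and 1.13 in males, and that of the collagens 0.66 and 0.73. On single arrays the matricellular median overlapped, at -0.047 to 1.37 after TAC and -0.47 to 0.39 in intact hearts. Cilp, a matrix protein of cardiac fibroblasts, had relative signals of 3.4 to 14.8 with a median of 12.2 after TAC, against 0.381 to 3.32 with a median of 1.12 in intact hearts (log2 difference 2.86 ± 0.454, adjusted p = 0.000306). Ccn2, the connective tissue growth factor, had 53.2 to 156 with a median of 95.9 in TAC hearts and 14.2 to 49.6 with a median of 22.5 in intact hearts (log2 difference 1.84 ± 0.26, adjusted p = 0.000134). Both were separate between the groups. Postn, the periostin of activated fibroblasts, had 8.84 to 49 with a median of 28.1 after TAC, against 2.99 to 9.16 with a median of 6.01 in intact hearts (log2 difference 2.07 ± 0.368, adjusted p = 0.0007), and its lowest TAC array lay inside the intact range. Cilp and Ccn2 passed the test within each genotype, whereas Postn passed within WT mice and had an adjusted p of 0.0561 within NOS3-TG mice in limma.

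Col1a1 and Col3a1, the major fibrillar collagens, had log2 differences of 1.05 ± 0.215 (adjusted p = 0.00182) and 0.88 ± 0.224 (adjusted p = 0.00762), with overlapping groups. Both passed within WT mice, and within NOS3-TG mice their adjusted p in limma was 0.112 and 0.211; the difference between genotypes did not pass for either. Col8a1, a network-forming collagen, had relative signals of 22.5 to 90.2 with a median of 48.4 after TAC, against 10.9 to 20.4 with a median of 13.8 in intact hearts (log2 difference 1.68 ± 0.232, adjusted p = 0.000119). Its groups did not overlap, nor did those of Col5a2, a chain of the collagen that nucleates fibrils, or Col4a1, a basement membrane collagen, which rose by 1.38 ± 0.227 and 1.32 ± 0.184 on the log2 scale. Of 20 measured genes of collagen processing 12 were higher and 1 lower, with a median of 0.35. The 4 measured lysyl oxidases, which cross-link collagen, were all higher. Lox had 0.0811 to 0.818 with a median of 0.273 in TAC hearts, against 0.0101 to 0.047 with a median of 0.0315 in intact hearts. It was well above background on only 1 intact array, and with the dim arrays set at the lowest signal well above background it was at least 4.19-fold higher after TAC (adjusted p = 0.000223). Loxl3, well above background on 3 intact arrays, was at least 2.92-fold higher on the same basis, and Loxl2 and Loxl1 rose by 1.23 and 1.17 on the log2 scale. Fkbp10, a collagen chaperone, was the member that fell (log2 difference -0.71 ± 0.128, adjusted p = 0.000755).

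Of 15 measured elastic fibre genes 7 were higher and 2 lower, with median log2 differences of 0.22 in females and 0.58 in males. Mfap5, a microfibril protein, had relative signals of 2.27 to 7.34 with a median of 2.97 after TAC and of 0.569 to 1.39 with a median of 0.885 in intact hearts (log2 difference 2.02 ± 0.269, adjusted p = 8.59e-05). Efemp1, the fibulin 3 of elastic tissue, moved the other way, with 0.34 to 0.905 and a median of 0.432 in TAC hearts, against 1.54 to 4.6 and a median of 2.11 in intact hearts (log2 difference -2.30 ± 0.233, adjusted p = 8.81e-06). The groups of both genes were apart. Of 18 measured proteoglycan genes 4 were higher (22.2%) and 2 lower (11.1%), against 15.3% and 19.7% of all tested genes. The median of that list was 0.074. Within NOS3-TG mice 1 gene was higher and within WT mice 5, against 5.4% and 9.8% of all tested genes. Vcan (versican) and Bgn (biglycan) were up by 1.40 ± 0.266 and 1.20 ± 0.207 on the log2 scale. Of 18 measured proteases and inhibitors 8 were higher and 1 lower (2 higher within NOS3-TG and 6 within WT mice). The median log2 difference of these genes was 0.17 in females and 0.67 in males. Timp1, an inhibitor of matrix metalloproteases, rose (log2 difference 1.52 ± 0.44, adjusted p = 0.0147), but did not pass within NOS3-TG mice alone (adjusted p = 0.365 in limma).

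Some markers of non-muscle cells changed as well, and the fibroblast markers include matrix genes themselves, such as Col1a1, Col3a1 and Postn. Of 23 measured fibroblast markers 8 were higher and 3 lower, with a median log2 difference of -0.023, and their summed relative signal was 533 to 689 after TAC and 487 to 606 in intact hearts. Meox1, a transcription factor of activated fibroblasts, and Mfap4, a microfibril protein, rose by 2.01 ± 0.274 and 1.87 ± 0.277 on the log2 scale, whereas Scara5, a ferritin receptor, fell by 1.51. Of 9 measured cartilage and valve markers 3 were higher and 1 lower, and with the atrial term 6 were higher. Col2a1, the cartilage collagen, had 0.74 to 3.12 with a median of 1.38 after TAC and 0.199 to 0.443 with a median of 0.287 in intact hearts (log2 difference 2.32 ± 0.291, adjusted p = 5.45e-05), and Chad (chondroadherin) fell by 1.68, a call not made with the adipocyte term. The part of cell numbers in the matrix response was not tested, and in bulk tissue fewer cells of a type and less RNA per cell cannot be told apart.

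Secreted growth factors changed with large sizes in single members. Gdf15, a stress-induced member of the TGF-beta superfamily, had relative signals of 1.46 to 14.2 with a median of 5.26 after TAC, against 0.27 to 1.12 with a median of 0.477 in intact hearts (log2 difference 3.18 ± 0.4, adjusted p = 5.45e-05). Tgfb2, a profibrotic ligand, had 0.736 to 1.62 with a median of 1.2 in TAC hearts and 0.301 to 0.64 with a median of 0.441 in intact hearts (log2 difference 1.32 ± 0.181, adjusted p = 0.00011). The groups of both were apart, while over the 28 measured genes of the superfamily and its signalling 10 were higher and 3 lower. Fstl1, a secreted follistatin-like protein, also rose (log2 difference 1.39 ± 0.205). Igfbp6 and Igfbp7, which bind insulin-like growth factors, rose by 0.93 ± 0.137 and 0.56 ± 0.079 on the log2 scale, and Igf2, one of those factors, fell by 0.81. Of 31 measured angiogenic ligands, receptors and hypoxia regulators 5 were higher and 13 lower, with Aplnr, the apelin receptor, up by 1.31 ± 0.287 and Angpt1, a ligand that stabilises vessels, down by 1.34 on the log2 scale. Edn3, an endothelin, had 0.153 to 0.368 with a median of 0.288 in TAC hearts, against 0.0661 to 0.0973 with a median of 0.0777 in intact hearts (log2 difference 1.75 ± 0.149, adjusted p = 2.22e-06).

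Genes of fatty acid use fell, and no measured member rose. Of 33 measured genes of uptake and oxidation 28 were lower and none higher, with a median log2 difference of -0.53. Within NOS3-TG mice 12 were lower at the threshold and within WT mice 26, with medians of -0.39 and -0.68. Acaa2, the last enzyme of mitochondrial beta-oxidation, had relative signals of 113 to 194 with a median of 156 after TAC, against 196 to 333 with a median of 301 in intact hearts (log2 difference -0.87 ± 0.123, adjusted p = 0.000127). Slc27a1, a fatty acid transporter, had 3.12 to 5.36 with a median of 4.43 in TAC hearts and 6.86 to 11.6 with a median of 9.1 in intact hearts (log2 difference -1.09 ± 0.114, adjusted p = 1.28e-05). Every TAC array lay below every intact array for both. Ucp3, a mitochondrial carrier whose gene answers to fatty acids, fell by 1.43 on the log2 scale.

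The largest falls in lipid handling lay outside beta-oxidation itself. Of 11 measured acyl-CoA thioesterases and carboxylesterases, however, 3 were higher (27.3%) and 4 lower (36.4%), against 15.3% and 19.7% of all tested genes. The median log2 difference of these 11 was -0.054, with 0.073 within NOS3-TG and -0.18 within WT mice. Acot1, a cytosolic acyl-CoA thioesterase and a known target of the fatty acid receptor PPAR-alpha, had relative signals of 0.594 to 2.13 with a median of 1.21 after TAC, against 4.09 to 11.6 with a median of 8.28 in intact hearts (log2 difference -2.72 ± 0.266, adjusted p = 7.13e-06). Ces1d, a carboxylesterase that hydrolyses triglyceride, had 0.787 to 6.53 with a median of 2.05 in TAC hearts and 10.9 to 16.4 with a median of 14.5 in intact hearts (log2 difference -2.61 ± 0.345, adjusted p = 8.14e-05). Acot1 has near-identical relatives, among them Acot2, whose own probe had a log2 difference of -0.84, and signals of such genes may mix on an array. Acsm5, a medium-chain acyl-CoA synthetase, fell by 2.62 on the log2 scale (SE 0.253, adjusted p = 6.64e-06). Ces5a, another carboxylesterase, went the other way: it was not well above background on any intact array and at least 3.87-fold higher after TAC (adjusted p = 7.94e-07). Of 19 measured genes of lipid droplets and triglyceride turnover 13 were lower and none higher. Dgat2, which makes triglyceride, had 61.3 to 119 with a median of 85.2 after TAC and 112 to 187 with a median of 165 in intact hearts (log2 difference -0.85 ± 0.154, adjusted p = 0.000778). Cidec and Plin1 of that list are fat cell genes, and 5 of 9 measured adipocyte markers were lower, with summed relative signals of 131 to 211 after TAC and 139 to 225 in intact hearts. With the term for adipocyte genes the median of the 33 oxidation genes was -0.61, with 29 of them lower. In the 6 arrays with low Myl7 the median was -0.64 and 2 of the 33 were called lower.

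Many mitochondrial genes fell by small amounts. Of 37 measured subunits of complex I 24 were lower and none higher, with a median log2 difference of -0.26, and of 41 subunits of complexes II to V 26 were lower and 1 higher, with a median of -0.24. Ndufs1, the largest complex I subunit, had relative signals of 79.5 to 114 with a median of 101 after TAC, against 116 to 165 with a median of 144 in intact hearts (log2 difference -0.52 ± 0.0859, adjusted p = 0.000415). Sdhc, a membrane anchor of succinate dehydrogenase, had 29.4 to 34.5 with a median of 32.4 in TAC hearts and 38.5 to 60 with a median of 49.5 in intact hearts (log2 difference -0.61 ± 0.0797, adjusted p = 6.93e-05). Both genes were lower on every TAC array, while Cox7c, a small subunit of cytochrome oxidase, rose by 0.43 ± 0.0911. Of 28 genes of pyruvate oxidation and the tricarboxylic acid cycle 19 were lower and none higher (median -0.30). Of 71 mitochondrial ribosomal proteins 30 were lower (19 in the 10 arrays with high Myl7) and 1 higher (median -0.12). For the tricarboxylic acid list 1 gene was lower within NOS3-TG and 18 within WT mice, with medians of -0.19 and -0.40. For mitochondrial ribosomal proteins these counts were 1 and 29, with medians of -0.057 and -0.24. For complexes II to V they were 3 and 23, with medians of -0.18 and -0.32. Within NOS3-TG mice 3 complex I subunits were lower at the threshold and within WT mice 25. The list medians were -0.15 in NOS3-TG and -0.35 in WT mice, and for no gene did that difference between genotypes pass its test. The list's medians on single arrays overlapped, at -0.44 to -0.11 after TAC and -0.26 to 0.25 in intact hearts. The lowest intact median was that of NOS3-TG intact replicate 2, which stood apart in its share of probes well above background. The part of this array in the smaller NOS3-TG responses was not tested. Of 20 genes that break down branched-chain amino acids 13 were lower, with 4 lower within NOS3-TG and 14 within WT mice. Mccc2, which carboxylates a leucine product, fell by 0.81 on the log2 scale with groups apart. Among 22 measured nuclear receptors and coactivators 10 were lower and 1 higher, with 0 lower within NOS3-TG and 10 within WT mice. Over all tested genes 4.25% were lower within NOS3-TG and 16% within WT mice. The NOS3-TG counts of the tricarboxylic acid, mitochondrial ribosomal and nuclear receptor lists lay below the NOS3-TG share. Ppargc1a, the coactivator of mitochondrial genes, had 4.13 to 9.68 with a median of 5.93 in TAC hearts and 8.05 to 12.7 with a median of 10 in intact hearts (log2 difference -0.69 ± 0.167, adjusted p = 0.0057).

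Of 25 measured genes of glucose uptake and glycolysis 9 were lower (36%) and 2 higher (8%), with a median log2 difference of -0.11, and of 20 glycogen genes 6 were higher and 6 lower. Single members changed strongly. Pfkfb1, which makes and removes the activator of phosphofructokinase, had relative signals of 0.378 to 0.957 with a median of 0.539 in TAC hearts and 1.3 to 7.91 with a median of 5.05 in intact hearts (log2 difference -2.89 ± 0.29, adjusted p = 8.66e-06). Its groups did not overlap. Pfkp, a phosphofructokinase subunit, had 4.21 to 8.98 with a median of 5.19 after TAC, against 2.27 to 2.71 with a median of 2.44 in intact hearts (log2 difference 1.12 ± 0.122, adjusted p = 1.7e-05). Ppp1r3c, which brings a phosphatase to glycogen, rose by 0.89 ± 0.0885 on the log2 scale, and Phkg1, a subunit of phosphorylase kinase, fell by 1.73.

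NAD synthesis changed its leading genes in opposite directions. Nmrk2, the muscle kinase of nicotinamide riboside, had relative signals of 20 to 58.8 with a median of 34.3 after TAC, against 2.21 to 4.82 with a median of 3.46 in intact hearts (log2 difference 3.39 ± 0.229, adjusted p = 4.8e-07). Nampt, which starts the salvage of nicotinamide, had 10.5 to 24.2 with a median of 14.5 in TAC hearts and 24.3 to 34.9 with a median of 31 in intact hearts (log2 difference -0.93 ± 0.16, adjusted p = 0.000547). All TAC arrays lay on 1 side for both, above for Nmrk2 and below for Nampt. The response of Nmrk2 was 3.52 in NOS3-TG and 3.26 in WT mice on the log2 scale. Of the 16 measured genes of NAD synthesis and use 3 were higher and 10 lower.

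Thyroid hormone genes included 2 deiodinases that rose. Dio2, which activates the hormone, had relative signals of 0.723 to 6.54 with a median of 3.99 after TAC, against 0.149 to 0.673 with a median of 0.462 in intact hearts (log2 difference 2.98 ± 0.485, adjusted p = 0.000371). Dio3, which inactivates it, was well above background on 2 intact arrays and at least 2.32-fold higher after TAC with overlapping groups (adjusted p = 0.0118), and Thrb, a receptor, fell by 0.68. Of the 8 measured genes of that list 2 were higher and 3 lower.

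Of 24 measured potassium channel genes 13 were lower and none higher, with a median log2 difference of -0.37, and the median over these genes was lower on every TAC array than on any intact array. Kcnv2, a modifier subunit of voltage-gated channels, had relative signals of 0.0742 to 0.539 with a median of 0.219 after TAC, against 0.735 to 1.24 with a median of 0.961 in intact hearts (log2 difference -2.16 ± 0.383, adjusted p = 0.000686). Kcnd2, a channel of the fast transient outward current, had 0.605 to 2.86 with a median of 1.02 in TAC hearts and 2.68 to 6.03 with a median of 3.35 in intact hearts (log2 difference -1.67 ± 0.329, adjusted p = 0.00146). The groups of Kcnv2 were apart and those of Kcnd2 met at their edges. The log2 difference of Kcnd2 was -0.70 in females and -2.64 in males, and the difference between these had an adjusted p of 0.134 in limma. Kcnd2 passed within WT mice and had an adjusted p of 0.0814 within NOS3-TG mice in limma. Kcnj3, a channel opened by acetylcholine, fell by 1.52 (SE 0.176, adjusted p = 2.9e-05); it is also known as an atrial gene, and with the atrial term its log2 difference was -1.56. Among 13 sodium channel and junction genes 3 were higher, with Scn3b, a sodium channel beta subunit, up by 0.74 ± 0.153, and 6 were lower.

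Of 28 measured genes of calcium cycling 10 were lower and 2 higher, with a median of -0.25. Camk2a, a calcium-dependent kinase, fell by 0.73 (SE 0.127) with groups apart, and Trdn, the triadin of the calcium release complex, by 0.66 (SE 0.109). Pln, the phospholamban that holds back the calcium pump of cardiomyocytes, had a log2 difference of -0.25 ± 0.0932 (adjusted p = 0.0487), a call lost without any of 11 single arrays (adjusted p of up to 0.0979, without WT TAC replicate 4). The pump itself, Atp2a2, had -0.22 ± 0.104 and did not pass (adjusted p = 0.117), and it passed with either tissue term added (adjusted p = 0.0289 with the atrial and 0.0166 with the adipocyte term). Of 23 adrenergic and cyclic AMP genes 10 were lower and 2 higher. Adra1b, an alpha-adrenergic receptor, had relative signals of 6.92 to 16.5 with a median of 9.65 after TAC, against 14.1 to 29 with a median of 23 in intact hearts (log2 difference -1.12 ± 0.171, adjusted p = 0.000239). Of 16 cardiomyocyte markers none was higher and 6 were lower (37.5%), and 9 were lower with either tissue term, with a median log2 difference of -0.18 (-0.24 with the atrial and -0.35 with the adipocyte term). Their summed relative signals were 3051 to 3989 after TAC and 3294 to 4513 in intact hearts. Of 25 sarcomere and Z-disc genes 4 were higher (16%) and 5 lower (20%), near the 15.3% and 19.7% over all tested genes, and Myot, a Z-disc protein, rose by 1.07 ± 0.155 on the log2 scale. Nos3 itself had a log2 difference of -0.03 ± 0.159 (adjusted p = 0.892), with -0.48 within NOS3-TG and 0.41 within WT mice. Neither passed alone, and the difference between them had an unadjusted p of 0.00162 and an adjusted p of 0.776 in limma.

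**Figure D4:**
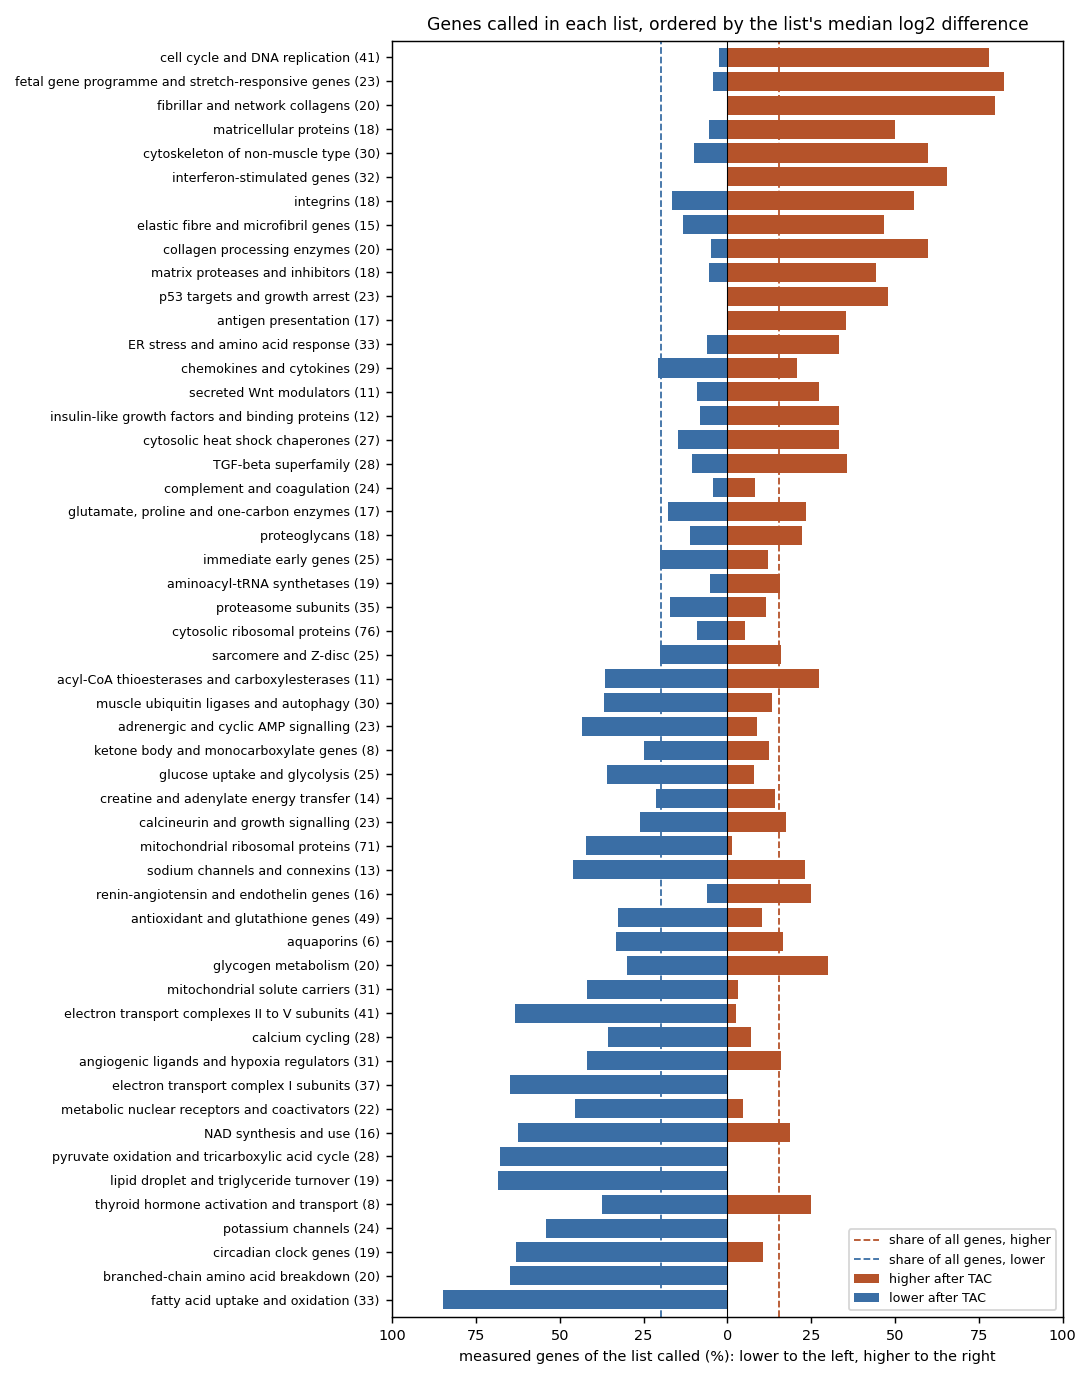
Share of the measured genes of each pathway list (number in brackets) called higher after TAC, to the right, and lower, to the left, with the lists ordered by their median log2 difference. Dashed lines give the shares over all tested genes, 15.3% higher and 19.7% lower, which the cell cycle, fetal and collagen lists pass on the right and fatty acid oxidation on the left.

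Cell cycle genes rose in most members but not evenly over mice. Of 41 measured genes 32 were higher and 1 lower, with a median log2 difference of 1.31. Fewer than 4 intact arrays measured 7 of them well above background, and with these genes' dim arrays at the lowest signal well above background the median was 1.02. Cdk1, the mitotic kinase whose promoter is printed above, had relative signals of 0.104 to 0.649 with a median of 0.275 after TAC, against 0.0434 to 0.106 with a median of 0.0589 in intact hearts, and was at least 3.48-fold higher on that basis (adjusted p = 0.00125). Bub1, a spindle checkpoint kinase, had 0.0432 to 0.178 with a median of 0.101 in TAC hearts and 0.0108 to 0.0399 with a median of 0.0177 in intact hearts, at least 1.76-fold higher (adjusted p = 0.00067). Bub1, which had no value on NOS3-TG intact replicate 2, was apart between the groups on the other 15 arrays, and Cdk1 nearly so. Both were dim: they were well above background on 1 and 2 of the 8 intact arrays. Top2a, the topoisomerase of dividing cells, was on none of them, and was at least 1.85-fold higher after TAC. The median of the list on single TAC arrays ran between 0.0057 and 2.29 on the log2 scale, relative to the intact mean, with NOS3-TG TAC replicates 2 and 4 the lowest and WT TAC replicate 4 the highest, all 3 of them females. Within NOS3-TG mice 2 genes of the list were higher at the threshold and within WT mice 27, with medians of 0.79 and 1.66. Over all tested genes 5.4% were higher within NOS3-TG and 9.8% within WT mice. Of 23 p53 targets and genes that arrest the cycle 11 were higher and none lower. Among them were Cdkn1a, the p21 inhibitor, at 1.18 ± 0.311 and Phlda3, a p53 target, at 0.86 ± 0.136. The log2 difference of Cdkn1a was 0.61 within NOS3-TG mice (adjusted p = 0.365 in limma) and 1.76 within WT mice. It was 0.56 in females and 1.80 in males. In NOS3-TG females Cdkn1a had relative signals of 1.16 and 0.847 after TAC, against 1.56 and 0.933 in intact hearts.

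Circadian clock genes were shifted. Of 19 measured 12 were lower and 2 higher, with a median of -0.42. Arntl, the activator that starts the clock's loop, had relative signals of 0.434 to 1.21 with a median of 0.829 after TAC, against 0.128 to 0.427 with a median of 0.214 in intact hearts (log2 difference 1.72 ± 0.283, adjusted p = 0.000402). Hlf, an output factor, had 0.604 to 1.91 with a median of 0.988 in TAC hearts and 2.61 to 5.05 with a median of 3.55 in intact hearts (log2 difference -1.69 ± 0.212, adjusted p = 5.38e-05). Both were apart, in opposite directions. Dbp, another output factor, had 28 to 62.4 with a median of 47.6 after TAC, against 49.4 to 137 with a median of 104 in intact hearts (log2 difference -1.10 ± 0.236, adjusted p = 0.00259). The labels used here give no hour of tissue collection, so its part was not tested.

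Interferon-stimulated genes were higher in 21 of 32 measured members and lower in none, with a median log2 difference of 0.41. Ifi44, an interferon-induced protein, had relative signals of 0.425 to 0.898 with a median of 0.67 after TAC, against 0.208 to 0.442 with a median of 0.259 in intact hearts (log2 difference 1.16 ± 0.154, adjusted p = 8.71e-05). Irf7, the factor that drives interferon genes, had 0.31 to 1.84 with a median of 0.956 in TAC hearts and 0.265 to 0.759 with a median of 0.444 in intact hearts (log2 difference 0.96 ± 0.205, adjusted p = 0.00241). Single mice overlapped for both, more for Irf7. The list's medians were 0.44 within NOS3-TG and 0.37 within WT mice. Macrophage and monocyte markers were higher in 9 of 28 (5 with the adipocyte term, 17 in the 10 arrays with high Myl7) and lower in 1. In the 6 arrays with low Myl7, where 74 of all tested genes were called, none of these markers was. Their median log2 differences were 0.016 within NOS3-TG mice, where none was called, and 0.46 within WT mice, where 12 were higher. The medians by sex were 0.047 in females and 0.485 in males. These markers had summed relative signals of 108 to 158 after TAC and 84.8 to 143 in intact hearts. Adgre1, the macrophage marker F4/80, rose by 0.59 ± 0.0985 on the log2 scale, and of 9 measured lymphocyte markers none passed the test in limma in either direction, with 2 at an unadjusted p under 0.05. The part of these cells in the interferon response was not tested.

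Of 29 chemokines and cytokines 6 were higher (20.7%) and 6 lower (20.7%), near the shares over all tested genes, and single members changed strongly. Tnfrsf12a, the receptor of the cytokine TWEAK, had relative signals of 53 to 82.1 with a median of 69.7 after TAC, against 11.5 to 28.8 with a median of 16.6 in intact hearts (log2 difference 2.02 ± 0.155, adjusted p = 8.11e-07). Ccl11, an eosinophil chemokine, had 0.0113 to 0.0291 with a median of 0.0177 in TAC hearts and 0.068 to 0.402 with a median of 0.195 in intact hearts and was well above background on 1 TAC array; it was at least 3.31-fold lower after TAC, with the dim arrays at the lowest signal well above background (adjusted p = 1.58e-05). Il15, a cytokine made by muscle, had 0.686 to 1.7 with a median of 1.02 after TAC and 2.03 to 3.73 with a median of 2.99 in intact hearts (log2 difference -1.35 ± 0.177, adjusted p = 7.39e-05). None of the 3 overlapped between the groups.

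The non-muscle cytoskeleton rose in 18 of 30 measured genes and fell in 3, with a median of 0.41, and its median was higher on every TAC array than on any intact array. Tuba1c, an alpha-tubulin, had relative signals of 26.8 to 43.8 with a median of 38.4 after TAC, against 16.8 to 23.7 with a median of 18.8 in intact hearts (log2 difference 0.95 ± 0.0941, adjusted p = 7.67e-06). Tubb2b, a beta-tubulin, rose by 1.39 ± 0.18 with groups apart. Myl9, a regulatory light chain of smooth muscle, fell by 0.94, and 7 of 17 smooth muscle and pericyte markers were lower and 2 higher, among them Myh11, the smooth muscle myosin, at -1.09 ± 0.169. Integrins, which join matrix and cytoskeleton, were higher in 10 of 18 and lower in 3, with Itgbl1, an integrin-like secreted protein, and Itga9, which binds tenascin, at 1.70 ± 0.218 and 1.13 ± 0.111.

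Protein quality control changed in part of its genes. Of 27 measured cytosolic chaperones 9 were higher and 4 lower. Hspb1, a small heat shock protein, had relative signals of 50.2 to 93.7 with a median of 71.1 after TAC, against 32.2 to 48.3 with a median of 37.3 in intact hearts (log2 difference 0.83 ± 0.128, adjusted p = 0.000249). Hsp90aa1, the inducible HSP90, had 60.5 to 86 with a median of 72.8 in TAC hearts and 34.8 to 56.1 with a median of 40.1 in intact hearts (log2 difference 0.79 ± 0.102, adjusted p = 6.93e-05). Both stood apart. Of 33 genes of endoplasmic reticulum stress and the amino acid response 11 were higher and 2 lower, with Mthfd2, a mitochondrial folate enzyme, at least 2.83-fold higher after TAC, and Aldh1l2, another mitochondrial folate enzyme, at -1.62 ± 0.122 (adjusted p = 8.11e-07). Cytosolic ribosomal proteins, with 4 of 76 higher and 7 lower, and proteasome subunits, with 4 of 35 higher and 6 lower, had medians of -0.022 and 0.028, near that of all genes.

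Several of the strongest single responses belonged to no large list. Spsb4, an adaptor of a ubiquitin ligase, had the smallest p-value among genes whose groups did not overlap, with relative signals of 5.6 to 7.63 after TAC and 1.46 to 2.34 in intact hearts (log2 difference 1.74 ± 0.0992, adjusted p = 2.61e-07). Aqp8, a water channel, had 5.55 to 19.2 with a median of 10.4 in TAC hearts, against 0.555 to 1.76 with a median of 1.42 in intact hearts (log2 difference 3.17 ± 0.238, adjusted p = 7.94e-07). Bcl2, which blocks cell death, had 2.26 to 5 with a median of 3.07 after TAC and 0.989 to 1.19 with a median of 1.11 in intact hearts (log2 difference 1.58 ± 0.11, adjusted p = 5.29e-07). All 3 were separate between the groups. Penk, the precursor of enkephalins, had 0.233 to 1.5 with a median of 0.993 in TAC hearts and 3.24 to 11.7 with a median of 4.89 in intact hearts (log2 difference -2.53 ± 0.379, adjusted p = 0.000206). Nmb, a bombesin-like peptide, fell by 2.21 (SE 0.268) and Gstt1, a glutathione transferase, by 1.53 (SE 0.124), each with groups apart. Gstt1 belongs to a list of 49 antioxidant and glutathione genes, of which 5 were higher and 16 lower.

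The lists varied in how evenly they moved over mice. The median over the fetal and stretch genes was 0.62 to 1.09 on the TAC arrays, against -0.19 to 0.13 on the intact arrays, on a log2 scale relative to the intact mean. That of collagen processing was 0.24 to 0.81 on TAC and -0.13 to 0.11 on intact arrays, and that of potassium channels -0.67 to -0.26 on TAC and -0.24 to 0.11 on intact arrays. These lists, with the endoplasmic reticulum and non-muscle cytoskeleton lists, were the 5 of 53 pathway lists in which the 8 TAC medians lay on 1 side of the 8 intact medians. Fatty acid oxidation came close, with -0.80 to -0.36 on TAC and -0.41 to 0.29 on intact arrays. The -0.41 was that of NOS3-TG intact replicate 2, and every other intact array lay at -0.13 or above. The median log2 difference had the same sign in both genotypes for 45 of the 53 lists and in both sexes for 46.

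**Figure D5:**
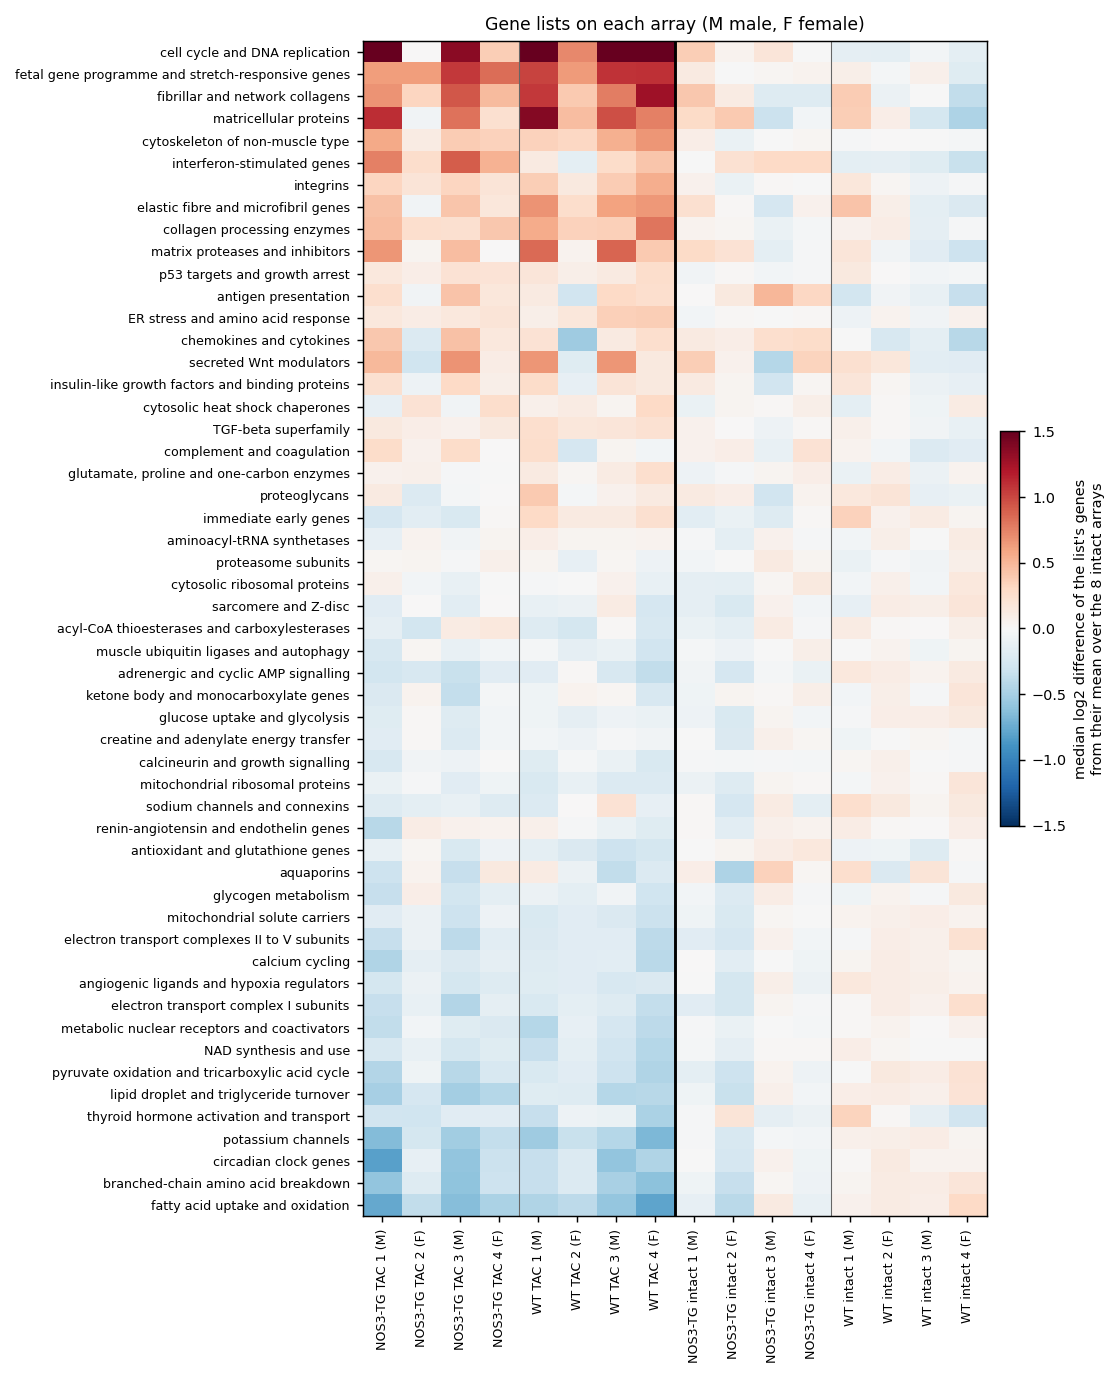
Colour gives, for each pathway list and array, the median over the list's genes of the log2 difference from their mean over the 8 intact arrays, with red higher, blue lower and values past the ends of the scale in its end colours. TAC arrays stand left of the heavy line; fetal and stretch genes are red on all 8, whereas cell cycle genes are near white on NOS3-TG TAC replicate 2.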

How the data were processed

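RNA from 16 mouse hearts was hybridised to 1-colour Agilent arrays. The authors deposited 1 scanner table per array, whose processed signals are intensities that Agilent Feature Extraction 9.5.1.1 had corrected for background, per the file headers, and a table of their own log2 values, which was used as an alternative. Control and outlier spots were left out, spots of a probe were averaged, and each intensity was divided by its array's 75th percentile and taken to log2. Of 41174 probes, those that 4 or more of the 16 arrays measured well above background were kept, and a gene's probe with the highest mean stood for it. TAC against intact was tested with limma 3.58.1 in R 4.3.3 with genotype as a term, and p-values were adjusted after Benjamini-Hochberg over 15670 genes. The number of arrays limits precision. The p-values set each difference against the spread between mice that condition and genotype leave, and they cannot separate TAC from slide.

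Members and gene lists were chosen with earlier results of these data known. The genes named were a fixed panel of cardiac genes, the largest and most certain changes whose groups did not overlap, up to 4 called genes by size per list, and marker genes. Fkbp10 and Tnnt1 were named after their values were seen, as the members that moved against their lists. Some genes that this rule picks are not reported here. Probes were named by accession, symbol or synonym through RefSeq where possible, and otherwise as in the files, so 13480 of the 15670 genes carry a RefSeq name. A gene that fewer than 4 arrays of a condition measured well above background is given as at least a fold, with the dim arrays at the lowest signal well above background. No source used here names a genome build for the probe positions, so none is printed. The fitting steps were tested on simulated data. Alternatives covered background correction, normalization, filters, probes, weights, sex, slide, scan day, single arrays and tissue markers.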

Additional observations from a re-analysis of the deposited data

Results flagged for a closer look

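Single arrays stood far from the other 3 of their group in 23 of 475 gene and group combinations (4.84%), with the gap on the log2 scale taking more than 0.829 of the group's range, a share that chance exceeds in about 1 of 20 groups, so that the count is close to what chance gives. NOS3-TG intact replicate 3 was low in the atrial genes Myl7 (gap 0.971 of the range), Myl4 (0.927) and Sln (0.945), in the fat cell gene Cidec (0.862), in the cartilage gene Comp (0.877) and in Myl9 (0.859). WT TAC replicate 2 was low in Cilp (0.881), Loxl1 (0.865) and Igfbp7 (0.873), and high in Hlf (0.91) and Phkg1 (0.879); for each of these genes it lay nearer to the intact arrays than the other WT TAC arrays did. NOS3-TG TAC replicate 2 was high in Acsm5 (0.886), Il15 (0.941) and Nmb (0.83) and low in Top2a (0.853) and Myh11 (0.976). WT intact replicate 4 was high in Kcnj3 (0.871) and Nmb (0.884). The remaining 5 were Aldh1l2 in NOS3-TG TAC replicate 1 (0.956), Adra1b in NOS3-TG TAC replicate 3 (0.836), Synpo2l in NOS3-TG TAC replicate 4 (0.841) and in NOS3-TG intact replicate 1 (0.844), and Scn3b in WT TAC replicate 1 (0.895).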

How the results depend on the processing

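The count of 5486 genes fell by more than 1.5 times under some settings, most of which use fewer samples. With scan day as a block there were 2719 genes (1213 higher, 1506 lower), and on scan day 1 alone, which is the same as leaving out slide 3, 2661 (1188 higher, 1473 lower). Without slide 4 there were 3217, of which 1468 lower. Females alone gave 903 (521 higher, 382 lower), the 6 arrays with low Myl7 gave 74 (49 higher, 25 lower), and a 2-fold minimum 688 (349 higher, 339 lower). Leaving out each array in turn gave 4693 to 5794 genes, 2097 to 2486 higher and 2591 to 3534 lower, and 4327 of the 5486 (78.9%) were called without any single array. For the difference between sexes that range was 0 to 213, and for the difference between genotypes it was 0 throughout. Quantile normalization moved the split to 2801 higher and 2698 lower, slide 1 left out to 1687 and 2800, and array quality weights to 2619 and 3772.

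Among all 5486 called genes the sign changed for 67 with the mean of a gene's probes, 46 in the 6 arrays with low Myl7, 7 in the authors' values, 6 in females and 1 with probes well above background on all arrays. The named genes that changed sign were not called in the report or disagree between probes. Nos3 had log2 differences of 0.025 with quantile normalization, 0.0067 in the authors' values, 0.00049 with the 75th percentile taken over probes well above background on all arrays, 0.019 without slide 4, 0.035 in females, 0.068 in the 6 arrays with low Myl7 and 0.090 without the 3 arrays farthest in share above background; without single arrays it ran from -0.12 to 0.069. Myh6 had 0.66 as the mean of its probes. Without slide 1, Myl7 had 0.33 and Sln 0.92; in males Myl4, Myl7 and Sln had 0.41, 1.21 and 1.51; with the adipocyte term Adipoq, Myl4, Myl7 and Sln had 0.49, 1.06, 2.63 and 3.26; in the 6 arrays with low Myl7, Adipoq, Myl7 and Sln had 0.051, 1.41 and 2.02; with the atrial term Sln had 0.50; and Comp, not called either, had -0.061 without slide 4. No paired analysis was possible because the replicate numbers were given in the order of the records and tie no mice together. Dim genes are bounded by background, and 8 mice a condition limit how small a difference can be seen.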

Other observations

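Other lists held genes that changed. Of 25 measured immediate early genes 3 were higher (12%) and 5 lower (20%) after TAC, near the 15.3% and 19.7% over all tested genes, with Egr2, a growth-induced factor, at relative signals of 0.462 to 2.3 (median 1.71) after TAC and 0.277 to 0.844 (median 0.491) in intact hearts (log2 difference 1.63 ± 0.282, adjusted p = 0.000577 in limma). Nr4a1, an orphan receptor of the same kind, fell by 0.75 (SE 0.226), a call not made with the adipocyte term; its log2 difference was -0.13 within NOS3-TG and -1.37 within WT mice, and the test of that difference gave an unadjusted p of 0.00216 and an adjusted p of 0.776 in limma. Of 16 renin-angiotensin and endothelin genes 4 were higher and 1 lower: Ace, the angiotensin-converting enzyme, rose by 0.65 ± 0.146, and Mme, the peptidase neprilysin, fell by 1.52 (SE 0.228). Antigen presentation genes were higher in 6 of 17 (2 with the adipocyte term) and lower in none, among them Ctss, the cathepsin of antigen-presenting cells, at 0.50 ± 0.153. Of 30 muscle ubiquitin ligase and autophagy genes 11 were lower and 4 higher, and Fbxo31, a subunit of such a ligase, had 20.8 to 50.6 (median 34.9) after TAC and 51.8 to 80 (median 64.1) in intact hearts, with no overlap (log2 difference -0.93 ± 0.18, adjusted p = 0.00127). Of 20 endothelial markers 8 were higher (2 with the adipocyte term) and 3 lower, Kdr, the VEGF receptor of endothelium, rising by 0.40 ± 0.116. The log2 difference of Kdr was 0.76 in females and 0.041 in males, and the difference between these had an adjusted p of 0.134 in limma. Kdr passed within neither genotype alone (adjusted p = 0.166 in NOS3-TG and 0.088 in WT mice in limma).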
